A study of Mus musculus with 15 samples.

Results

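Dysplastic lung tissue was compared with unaltered lung tissue of the same transgenic line. The samples are the 5 arrays titled dysplasia and the 5 titled transgenic but unaltered, 10 of the 15 arrays of the series, and they were chosen by their titles alone. The mice are SP-C/c-raf transgenics on a C57BL/6 background, in which the surfactant protein C promoter drives c-raf, so that the transgene is aimed at respiratory epithelial cells and is carried by both groups alike. The mice were 5 to 7 months old, and dysplastic foci and unaltered tissue were cut out of lung sections of the same animals by laser microdissection, as the methods describe. Each sample was hybridised to its own Affymetrix mouse genome array. The other 5 arrays, of non-transgenic lung from mice of 7 to 10 months, are quoted only as levels, without a test. No treatment is named for either group, and the transcript of the transgene itself was not analysed here.

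Raf kinases pass signals from growth factor receptors through Ras to the kinases Mek and Erk, and Erk activity turns on early response genes, cyclins and the inhibitors that dampen the pathway again. The EGF family ligands act on ErbB receptors at the head of this pathway. The lung epithelium holds flat alveolar type 1 cells, surfactant-making type 2 cells and the club and ciliated cells of the airways, and it lies on a mesenchyme that is rich in capillaries.

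Signals are those the authors' array software gave, scaled to the same trimmed mean on every array, and values after ± are the SD over 5 arrays. Log2 change is the difference between dysplasia and transgenic tissue in the mean of log2(signal + 50). This scale makes the changes of dim probe sets look smaller than they are. Fold is the ratio of mean signals. Signals below 100 lie near the background, so the size of a fold measured from there is uncertain. A gene is called higher or lower at an adjusted p under 0.05 (limma, Benjamini-Hochberg over 21658 probe sets with a mean signal above 100). Levels of different genes cannot be compared on these arrays. In bulk tissue, fewer cells of a type and less RNA per cell cannot be told apart.

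Dysplasia 4 stood apart from the other arrays. It carried Xist at 9674 together with the Y-linked Eif2s3y at 495, whereas transgenic 4 had Xist at 85.0 and Eif2s3y at 1567. In the other 4 numbers the dysplasia and the transgenic array had Xist and Eif2s3y on the same side, both female in number 3 and both male in numbers 1, 2 and 5. For transgenic 2 the labels conflict, since its title gives unaltered transgenic tissue and another entry gives tumor. It was kept as transgenic. Without transgenic 2 the counts of probe sets were 3089 higher and 3667 lower, and without both arrays of number 4 they were 2513 and 3155, against 3321 and 3871 with all 10 arrays. The ratio of 5' to 3' actin signal, which falls as RNA degrades, lay between 25.1% and 75.2% in dysplasia and between 12.5% and 63.4% in transgenic tissue, and mean signals ran from 694 to 775.

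Of 11605 tested genes 2160 were higher in dysplasia, a background of 18.6%, and 2440 were lower, a background of 21%. The arrays of the groups did not overlap for 3631 genes, or 31.3%, of which 1710 were higher and 1921 lower. Within the numbers, all 5 dysplasia arrays lay above the transgenic array of the same number for 2125 of the genes called higher and below it for 2394 of those called lower. The calls came from the same arrays, so these counts are no independent evidence. The median change over all genes was -0.01. Adding the number of the array as a blocking term gave a fit that called 3004 genes higher (25.9%) and 3253 lower (28%) and that kept 4599 of the 4600 calls. Its value is given beside a named gene whose call it changed and beside a list whose count it moved by more than 1.5 times. Without number 4, 3660 of the calls passed and 14.3% of genes were higher. A list whose share of calls lies near that of all genes gives no result about the list. At a fold of at least 2 and an adjusted p of at most 0.001, 463 genes were higher and 795 lower. For a gene with several probe sets the brightest is given, and with the most variable probe set instead Acly, Bcl2, Etv5, Gata6, Gjc1, H2-Ab1, Jag1 and Vegfa of the genes below had no call and Ccnd3, Cx3cl1, Grb2, Igfbp7 and Map2k2 changed direction.

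EGF receptor ligands were higher, and Areg and Ereg were among the 12 largest rises. Of 9 ligand genes 5 were bright enough to be tested, and all 5 were higher in dysplasia, with a median log2 change of 1.39. Areg encodes amphiregulin, a ligand that is shed from the cell surface and binds the EGF receptor. Its signal was 3991, 6750.2, 6093, 3594 and 4283 in dysplasia 1 to 5 and 334, 496, 264, 238 and 274 in transgenic 1 to 5. Every dysplasia array lay far above every transgenic array, and the mean signal was 15.4 times that of transgenic tissue (log2 change 3.74, standard error 0.22, adjusted p = 1.03e-06, limma). Ereg encodes epiregulin, which binds the EGF receptor and Erbb4, and had a signal of 6412, 4830.4, 6521, 4850.0 and 4705 in dysplasia 1 to 5 and 331, 625, 513, 313 and 436 in transgenic 1 to 5. The groups were again far apart, at a ratio of 12.3 (log2 change 3.51, standard error 0.18, adjusted p = 7.95e-07, limma). In non-transgenic lung Ereg lay near background, at 11.3 ± 9.18, and Areg at 139 ± 31.2. Betacellulin, Btc, rose from 128 ± 17.9 to 417 ± 45.0 and Tgfa from 549.5 ± 69.9 to 1134 ± 107, both without overlap. Hbegf, the heparin-binding ligand, read 4864, 4425, 1934, 2297 and 1450.4 in dysplasia 1 to 5 and 1855, 2026, 818, 1039 and 613 in transgenic 1 to 5. Here the groups overlapped although each dysplasia array was above its own number's transgenic array, and the call (adjusted p = 0.0393, limma) was lost without number 4 (adjusted p = 0.107) and when any of 6 single arrays (adjusted p up to 0.0905: dysplasia 1, dysplasia 2, dysplasia 4, transgenic 3, transgenic 4, transgenic 5) was left out.

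The promoter of Areg is shown because Areg was the largest rise among the growth factor ligands. It is the RefSeq sequence from 250 bases before to 50 bases after the first listed start, build GRCm38.p6, plus strand, chr5:91139349-91139648. Capitals mark a TGACGTCA (cyclic AMP response element, 61 bases upstream of the start) and a TATAAA (31 bases upstream), found by searching both strands.
Areg: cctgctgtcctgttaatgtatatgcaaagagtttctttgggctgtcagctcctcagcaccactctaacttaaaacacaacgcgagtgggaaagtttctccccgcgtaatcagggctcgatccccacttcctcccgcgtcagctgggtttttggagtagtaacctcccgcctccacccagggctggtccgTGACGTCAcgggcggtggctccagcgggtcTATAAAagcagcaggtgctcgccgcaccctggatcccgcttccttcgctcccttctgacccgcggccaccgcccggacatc
TGACGTCA was held by 3.11% and TATAAA by 7.17% of the 9394 tested genes that have a promoter in this source. A match is only a stretch of letters and was not tested as a site.

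The receptors changed in opposite directions. Egfr, the receptor that Areg and Tgfa bind, had a signal of 183, 169, 181, 239.7 and 209 in dysplasia 1 to 5 and 550.2, 436, 574, 506 and 699 in transgenic 1 to 5. Every dysplasia array was below every transgenic array, and all 3 tested probe sets of the gene were lower (log2 change -1.28, standard error 0.13, adjusted p = 2.51e-05, limma). Erbb2, the partner receptor that has no ligand of its own, read 1126, 972, 1384, 1151 and 1351 in dysplasia 1 to 5 and 510.4, 501, 517, 556 and 496 in transgenic 1 to 5, and Erbb3, its kinase-poor partner, read 3746, 4345, 4287, 3572 and 4386 in dysplasia 1 to 5 and 1541, 1843, 2011, 1606 and 1820.4 in transgenic 1 to 5. Both were higher without overlap, by 1.13 and 1.18 on the log2 scale. Of the feedback genes that limit ErbB receptors, Lrig1 was higher at 623 ± 76.1 against 352 ± 73.1 while Lrig3 was lower at 97.1 ± 24.1 against 208 ± 28.2. Errfi1, an inhibitor of the EGF receptor kinase, rose by 0.73 (adjusted p = 0.044, limma), a call that was lost when any of 8 single arrays (adjusted p up to 0.101: dysplasia 1, dysplasia 3, dysplasia 4, dysplasia 5, transgenic 2, transgenic 3, transgenic 4, transgenic 5) was left out. Over the 6 tested genes of this list 4 were higher and 2 lower.

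Most genes of the Ras, Raf, Mek and Erk chain itself showed no call. Of 9 tested genes 3 were higher and 0 lower, with a median of 0.03, against 3 higher and 1 lower with the number as a block. Map2k1, the gene of Mek1, had a signal of 3576, 3235, 3969.7, 3304 and 3259.7 in dysplasia 1 to 5 and 2361, 1962, 2133, 2361 and 1758 in transgenic 1 to 5, with all dysplasia arrays higher (log2 change 0.70, standard error 0.11, adjusted p = 0.00042, limma). Shc1, an adaptor of activated receptors, was higher at 1900.2 ± 441 against 1098 ± 90.7. Map2k2 was called at an adjusted p = 0.0472 (limma), with overlapping groups, and lost the call when any of 8 single arrays (adjusted p up to 0.113: dysplasia 1, dysplasia 3, dysplasia 4, dysplasia 5, transgenic 2, transgenic 3, transgenic 4, transgenic 5) was left out. Araf read 490.5 ± 47.3 and 478 ± 35.0, Braf 1111 ± 78.5 and 1224 ± 77.4, and Nras 1721 ± 251 and 1961 ± 209, and none of these passed the test.

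**Figure D1:**
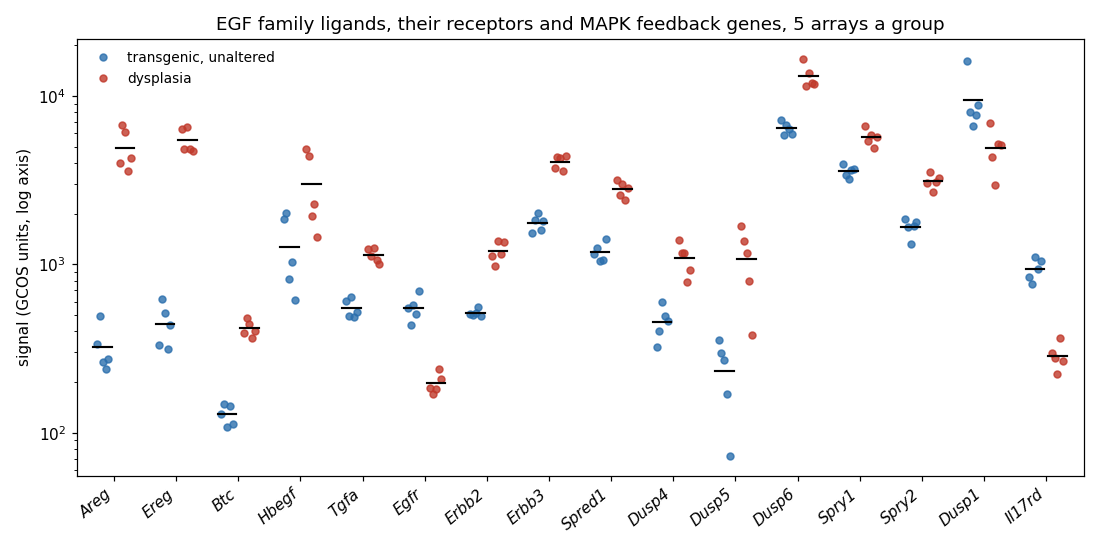
Signal on a log axis for 16 genes, with 1 dot per array (blue, 5 transgenic unaltered arrays; red, 5 dysplasia arrays) and a black bar at the mean of each group. The ligands Areg, Ereg, Btc and Tgfa and the receptors Erbb2 and Erbb3 lie higher in dysplasia without overlap, Egfr and Il17rd lie lower without overlap, and the arrays of Hbegf and Dusp1 overlap.

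Genes that dampen the MAPK pathway moved in both directions. Of 13 tested, 6 were higher and 3 lower. Dusp6, the cytoplasmic phosphatase of Erk, read 16665, 11424, 13702, 11905 and 11735 in dysplasia 1 to 5 and 7177, 5886, 6766, 6371 and 5929 in transgenic 1 to 5. Dusp5, its nuclear counterpart, had 1684, 1382, 1165, 796 and 383 in dysplasia 1 to 5 and 356, 298, 269.9, 170.4 and 72.7 in transgenic 1 to 5. Both were higher in every dysplasia array than in any transgenic array, although Dusp5 varied over a wide range inside each group, by 1.01 and 1.96 on the log2 scale. Spred1, which keeps Ras from activating Raf, was higher in all 6 of its probe sets (log2 change 1.21, standard error 0.11, adjusted p = 1.77e-05, limma). Dusp4, Spry1 and Spry2 were higher by 1.18, 0.66 and 0.90 on the log2 scale. The strongest change in the other direction was that of Il17rd, also called Sef, an inhibitor at FGF receptors, which read 299, 277, 223, 363 and 268 in dysplasia 1 to 5 and 837, 762, 1114, 945 and 1047 in transgenic 1 to 5. Its groups did not overlap, and it fell by 1.56 on the log2 scale (standard error 0.13, adjusted p = 1.09e-05, limma). Dusp1 fell by 0.92 and Dusp10, a phosphatase of Jnk and p38, fell by 0.69 on the log2 scale.

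Early response genes and Etv factors were also divided. Of 12 tested genes 7 were higher and 2 lower, with a median of 0.69. Etv4, an Ets factor downstream of FGF and Erk signals, read 316, 273, 335, 313 and 326 in dysplasia 1 to 5 and 5.67, 6.71, 12.2, 8.97 and 10.9 in transgenic 1 to 5. Transgenic tissue was at background for this gene, so only the dysplasia level is firm (log2 change 2.62, standard error 0.08, adjusted p = 6.81e-08, limma). Etv4 passed the signal limit through dysplasia. At a limit of 200, 6 genes of the list were higher and 2 lower, with a median of 0.50. Egr1 and Junb, transcription factors of the early response, were higher at 11385 ± 3070.5 against 3459 ± 1908 and 1676 ± 343 against 745 ± 178. Phlda1 rose by 1.17. Jun and Ier3 went the other way without overlap. Jun, the AP-1 subunit, had a signal of 3744, 3063, 2135, 2394 and 2744 in dysplasia 1 to 5 and 6057, 5049.9, 5405, 6042 and 5915 in transgenic 1 to 5, and Ier3 read 3156 ± 402 against 7141 ± 864. Jund was level at 10079 ± 913 and 10187 ± 1824, and Fos, higher by 0.88, lost its call without number 4 (adjusted p = 0.102, limma), without dysplasia 1 and without transgenic 4 (adjusted p up to 0.0606).

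Cyclin and inhibitor genes rose together for Ccnd1, Cdkn1a and Cdkn2a. Ccnd1, cyclin D1, read 12785, 8479.6, 10357, 9016 and 8896 in dysplasia 1 to 5 and 5962, 3688, 4323, 4744 and 3947 in transgenic 1 to 5. Cdkn1a, which encodes the inhibitor p21, had 6479, 5233, 6666, 5107 and 6478 in dysplasia 1 to 5 and 3801, 1909.6, 2786, 1708 and 2219 in transgenic 1 to 5. Neither gene overlapped between the groups (limma, log2 change 1.12 for Ccnd1 and 1.30 for Cdkn1a, standard error 0.15 and 0.20, adjusted p = 0.000194 and 0.000408). Cdkn2a, whose products p16 and p19Arf restrain the cycle, was higher by 0.97, with dysplasia 4 inside the transgenic range. Ccnd3 fell by 0.48, without overlap, whereas Cdkn1b, Cdkn2c and Cdkn2d fell by 0.75, 0.43 and 0.36 on the log2 scale and lost their calls without number 4 (adjusted p = 0.0704, 0.0775 and 0.0558, limma) and without several of the single arrays. In the list of 10 genes 3 were higher and 4 lower. In the Myc network 2 of 10 were higher and 2 lower, near the 18.6% and 21% of all genes, so the counts give no result about the list. Myc rose from 248 ± 21.9 to 659 ± 105, Mxd1 by 0.62 on the log2 scale, and Max and Mxi1 fell by 0.48 and 0.55, the call of Max being lost when any of 6 single arrays (adjusted p up to 0.095: dysplasia 3, dysplasia 4, dysplasia 5, transgenic 1, transgenic 2, transgenic 3) was left out.

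Genes of cell division rose together. Of 18 tested mitosis genes 17 were higher and 0 lower (median 0.98), and the same 17 counted without number 4. Cdc20, the activator of the anaphase-promoting complex, read 2471, 3514, 3377, 2768 and 3980.5 in dysplasia 1 to 5 and 704, 1278, 1065, 1039 and 1162 in transgenic 1 to 5. Its groups did not overlap (log2 change 1.58, standard error 0.17, adjusted p = 4.30e-05, limma). Ube2c, the ubiquitin conjugase of that complex, was higher by 1.44, the mitotic kinase Cdk1 by 1.28 and the proliferation marker Mki67 by 0.83. The checkpoint kinase gene Bub1 was the 1 gene without a call, at 259.5 ± 47.3 and 209.8 ± 33.9, and with the number as a block it was called higher too (adjusted p = 0.0405, limma). Replication genes moved less. Of 17 tested, 12 were higher and 0 lower (median 0.51), and 10 without number 4. The helicase genes Mcm5 and Mcm6 were higher by 0.76 and 0.69, Mcm6 with 1432, 1469, 1734, 1548 and 1378 in dysplasia 1 to 5 and 642, 1033, 1117, 1056 and 812 in transgenic 1 to 5, while Mcm3 and Mcm4 and the sliding clamp gene Pcna had no call (Pcna adjusted p = 0.0563, and 0.021 with the number as a block, limma).

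Promoters of a few of these genes are shown since mitosis genes moved together. They come from the same RefSeq table and build: Cdc20 on the minus strand at chr4:118437294-118437593, Ube2c on the plus strand at chr2:164769679-164769978 and Mcm6 on the minus strand at chr1:128359656-128359955. Capitals mark TTTGAA (the core of the CHR element), CCAAT (the box bound by NF-Y) and TTTGGCGC (an E2F type motif), each in either orientation.
Cdc20: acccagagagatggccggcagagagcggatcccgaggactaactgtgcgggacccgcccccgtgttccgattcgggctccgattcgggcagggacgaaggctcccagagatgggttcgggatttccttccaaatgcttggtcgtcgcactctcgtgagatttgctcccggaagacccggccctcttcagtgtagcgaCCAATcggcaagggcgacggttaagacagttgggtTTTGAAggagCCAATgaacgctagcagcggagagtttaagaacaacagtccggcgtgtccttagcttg
Ube2c: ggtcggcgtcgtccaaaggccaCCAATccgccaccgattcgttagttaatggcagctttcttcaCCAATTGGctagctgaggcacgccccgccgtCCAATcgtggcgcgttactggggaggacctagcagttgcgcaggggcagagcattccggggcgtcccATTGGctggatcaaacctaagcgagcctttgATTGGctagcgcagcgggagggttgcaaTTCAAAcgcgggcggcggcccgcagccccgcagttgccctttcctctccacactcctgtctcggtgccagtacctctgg
Mcm6: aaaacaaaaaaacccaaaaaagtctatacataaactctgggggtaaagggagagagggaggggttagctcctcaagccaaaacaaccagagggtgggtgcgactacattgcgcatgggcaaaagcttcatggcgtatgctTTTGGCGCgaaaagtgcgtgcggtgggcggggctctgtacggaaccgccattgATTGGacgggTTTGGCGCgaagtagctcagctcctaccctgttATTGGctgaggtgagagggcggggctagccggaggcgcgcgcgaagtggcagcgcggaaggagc
Of 15 mitosis genes with a promoter in the table, 12 held TTTGAA, 13 held CCAAT and 12 held both, against 11.5%, 37.8% and 4.52% of all 9394 promoters of the same length. TTTGGCGC was found in 5 of 14 replication genes, against 1.04% of all. These are counts of letters with no test.

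Transcription factors of lung and endoderm rose together. Of 15 tested, 12 were higher and 0 lower, with a median of 0.98, and the count was the same without number 4. Nkx2-1, Sox2 and Sox9 lay below the signal limit and were not tested. Foxp2, a repressor of lung epithelial differentiation genes, read 2055, 2710.5, 2841, 1972 and 2402 in dysplasia 1 to 5 and 408, 650.0, 524, 522 and 503 in transgenic 1 to 5. Elf5, an Ets factor of distal lung buds and glandular epithelium, had 4839, 3716, 4243, 3772 and 4206 in dysplasia 1 to 5 and 1217, 1666, 1239, 1032 and 1226 in transgenic 1 to 5. The groups lay well apart for both, at ratios of 4.60 and 3.26. Hnf4a, the regulator of liver and gut epithelium, is counted in the gastric and gut list instead. It had 589.9, 474, 592, 383 and 618 in dysplasia 1 to 5 and 14.3, 57.1, 17.2, 50.2 and 68.5 in transgenic 1 to 5. Transgenic tissue was at background for it, and it passed the signal limit through dysplasia (log2 change 2.69, standard error 0.20, adjusted p = 4.07e-06, limma). Foxa3, the forkhead factor of goblet cells and liver, likewise rose from 48.6 ± 14.0 to 362 ± 63.6. It was the 1 tested gene of the goblet and basal cell list. Klf5, Grhl2, Ehf, Cebpa, Foxp4, Foxa2, Gata6, Foxa1 and Elf3 completed the 12 rises of the lung and endoderm list, between 0.61 for Elf3 and 1.31 for Klf5. Foxp1, Id2 and Cebpd had no call, but with the number as a block Id2 was higher and Cebpd lower (adjusted p = 0.0193 and 0.00277, limma).

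Surfactant genes and other type 2 cell markers did not follow this pattern. Of 14 markers 2 were higher and 0 lower, with a median of 0.11, against 5 higher and 1 lower with the number as a block. Sftpc, whose promoter drives the transgene, read 32942, 15342, 18503, 16996 and 18071 in dysplasia 1 to 5 and 36063, 17341, 17458, 22832 and 16736 in transgenic 1 to 5. Its groups overlapped fully (log2 change -0.11, standard error 0.25, adjusted p = 0.798, limma). Sftpa1, Sftpb and Sftpd changed by 0.10, 0.11 and 0.11. The mucin gene Muc1 and the Ets factor Etv5 were the genes that rose, by 0.56 and 0.50. Sftpc and Sftpd were highest in number 1 of both tissues.

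Type 1 cell markers were mostly lower, 9 of 14, with 1 higher. Rtkn2 and Spock2, the latter a matrix proteoglycan gene, were lower without overlap, at 740.2 ± 127 against 2176 ± 263 and 674 ± 206 against 2889 ± 557. Aqp5, the water channel of type 1 cells, was the gene that rose, with 19002, 12446, 16873, 12949 and 14835 in dysplasia 1 to 5 and 11094, 7851, 9325, 10112 and 8053 in transgenic 1 to 5. Ager, a defining marker of these cells, read 23061 ± 5142 and 24249.5 ± 6700.0 and did not pass the test (adjusted p = 0.856, limma), nor did Pdpn at 6053 ± 770.1 and 7586 ± 1022, which was lower with the number as a block (adjusted p = 0.00562). Hopx and Akap5 fell by 0.65 and 0.90 and lost their calls without number 4 (adjusted p = 0.0714 and 0.0958, limma), and Akap5 also when any of 6 single arrays (adjusted p up to 0.0794: dysplasia 1, dysplasia 3, transgenic 2, transgenic 3, transgenic 4, transgenic 5) was left out.

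Airway genes gave a mixed picture. Of 8 club cell markers 5 were higher and 1 lower. The defining marker Scgb1a1 had no call, at 26936 ± 5874 and 24443 ± 2983. Aldh1a7, an aldehyde dehydrogenase, had the steadiest rise, with 8003, 7149, 8247, 8007 and 8536 in dysplasia 1 to 5 and 3686, 3692, 3985, 3675 and 4250.2 in transgenic 1 to 5. Cyp2f2, the naphthalene-oxidising enzyme of club cells, read 14873, 5529, 7317, 13049 and 5603 in dysplasia 1 to 5 and 3039, 4481, 3445, 3348 and 3728 in transgenic 1 to 5, with dysplasia 1 and 4 highest. Ces1d fell by 0.73. Among 4 tested ciliated cell markers Pifo, Rsph1 and Tubb4b were higher by 2.70, 1.25 and 0.60, and Tppp3 fell by 1.09 on the log2 scale. The other 6 of 10 listed, among them Foxj1, Dnah5 and Tekt1, lay below the signal limit and were not tested.

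Keratin genes of epithelium rose with 1 exception. Of 7 keratins 6 were higher and 1 lower, and all 7 were without overlap. Krt18, a keratin of simple epithelium, read 19668, 14721, 17929, 14987 and 14811 in dysplasia 1 to 5 and 3955, 3574, 3814, 3562 and 3367 in transgenic 1 to 5. Krt8, with which it pairs, had 15538, 12154, 14316, 12872 and 14294 in dysplasia 1 to 5 and 5936, 4943, 5073, 5067 and 5534 in transgenic 1 to 5. Dysplasia arrays were above all transgenic arrays for both, by 2.14 and 1.37 on the log2 scale. Krt23, Krt19, Krt20 and Krt7 were higher by 1.53, 1.36, 1.29 and 0.98. Krt80 fell by 1.29, from 2676 ± 473 to 1067 ± 205.

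Claudins, the sealing proteins of tight junctions, moved in both directions. Cldn2, a pore-forming claudin, read 3267, 2685, 2851, 2367 and 2888 in dysplasia 1 to 5 and 170.2, 296, 218, 154 and 219 in transgenic 1 to 5. Cldn4 had 752, 1185, 1503, 966 and 1001 in dysplasia 1 to 5 and 50.1, 176, 178, 113 and 124 in transgenic 1 to 5. The groups were far apart for both (limma, log2 change 3.47 for Cldn2 and 2.69 for Cldn4, standard error 0.15 and 0.24, adjusted p = 3.39e-07 and 1.27e-05). Cldn3, Cldn7 and Cldn8 were higher by 1.62, 1.41 and 1.51. Cldn18, the claudin of alveolar epithelium, showed no call at 14006 ± 1599 and 12096 ± 1259, and Cldn5, the claudin of endothelium, and Cldn15 fell by 1.88 and 0.83. In all, 5 of 12 were higher and 2 lower.

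The gap junction genes Gjb1, Gjb2 and Gjb6 were higher by 1.66, 1.75 and 1.60, and Gja4 and Gjc1, which are known from vessels, were lower, with log2 changes of -1.49 and -1.74. Gja1, the other tested connexin, had no call and was higher with the number as a block (adjusted p = 0.00999, limma). Among 15 cadherin adhesion genes 5 were higher and 5 lower. Epcam, an epithelial adhesion molecule, read 9019, 6843, 7457, 6698 and 7556 in dysplasia 1 to 5 and 2857, 2635, 2175, 2292 and 2367 in transgenic 1 to 5. The desmosomal cadherin Dsg2 was higher by 1.24, while E-cadherin, Cdh1, read 8667 ± 1243 and 7066 ± 1297 without a call and was higher with the number as a block (adjusted p = 0.016, limma). N-cadherin, Cdh2, and the endothelial Cdh5 fell by 1.06 and 1.82. Among 5 tested stem cell markers, Epcam and Cd44 were higher, and Prom1, Abcg2 and Aldh1a1 fell by 0.68, 1.02 and 1.03 on the log2 scale. Cd44, higher by 0.41, lost its call without number 4 (adjusted p = 0.0586, limma) and when any of 3 single arrays (adjusted p up to 0.061: dysplasia 2, dysplasia 3, transgenic 5) was left out. The study named Cd44, Prom1 and Epcam of that list but not Abcg2 and Aldh1a1, and the list is not independent evidence.

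Several genes that adult lung scarcely uses had clear signal in dysplasia. Chl1 and Adcyap1, known from neurons, rose from 34.4 ± 17.0 to 424 ± 56.4 and from 58.6 ± 24.7 to 269 ± 73.2. Ros1, a receptor tyrosine kinase, read 336, 259.7, 308, 263 and 353 in dysplasia 1 to 5 and 36.4, 90.0, 32.5, 49.5 and 51.3 in transgenic 1 to 5. Transgenic arrays lay near background for these genes. Dmkn, an epidermal secreted protein, was well above it in both groups and had 6989.9, 5775, 7434, 5532 and 7213 in dysplasia 1 to 5 and 1316, 2309.7, 2055, 1371 and 1816 in transgenic 1 to 5. Of 10 tested genes of this list, part of them chosen from this series by the study and so no independent evidence, 9 were higher and 1, the synaptic vesicle gene Syp, was lower. Another 10 of the 20 listed genes were not tested, among them Chga, Chgb and Ncam1, whose signals lay below the limit. Several genes of the list, Chl1 and Adcyap1 among them, passed the limit through their dysplasia signal, so the share of rises is partly set by that limit. At a limit of 200, 5 genes of the list were higher and 0 lower. Among 6 tested gastric and gut genes Gkn2 and Hnf4a were higher, Lgals4 fell by 0.33, and Tff1, Gkn3 and Ctse had no call, though Gkn3 was lower with the number as a block (adjusted p = 0.0366, limma). The other 12 of 18 listed, among them Cdx1, Cdx2, Tff2 and Vil1, lay below the signal limit and were not tested.

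Promoters of Gkn2 and Itih2 are shown because these genes were among the largest rises. Gkn2, a gastrokine of the stomach lining, read 7549, 4540.2, 6617, 4862 and 4809.8 in dysplasia 1 to 5 and 209, 248, 155, 138 and 163 in transgenic 1 to 5. Itih2, a plasma protein of the liver, read 1649, 934, 1515, 1104 and 1256 in dysplasia 1 to 5 and 35.4, 80.9, 93.1, 71.8 and 93.5 in transgenic 1 to 5. Transgenic arrays were below 100 for Itih2 and above it for Gkn2, and both genes were higher without overlap (limma, log2 change 4.61 for Gkn2 and 3.42 for Itih2, standard error 0.17 and 0.18, adjusted p = 1.66e-07 and 7.95e-07). The promoters lie on the plus strand at chr6:87373115-87373414 and on the minus strand at chr2:10130634-10130933 (RefSeq, GRCm38.p6). Capitals mark TGTTTGC (a forkhead type motif) and TATAAA in Gkn2, and TGACTCA (the AP-1 motif) in Itih2.
Gkn2: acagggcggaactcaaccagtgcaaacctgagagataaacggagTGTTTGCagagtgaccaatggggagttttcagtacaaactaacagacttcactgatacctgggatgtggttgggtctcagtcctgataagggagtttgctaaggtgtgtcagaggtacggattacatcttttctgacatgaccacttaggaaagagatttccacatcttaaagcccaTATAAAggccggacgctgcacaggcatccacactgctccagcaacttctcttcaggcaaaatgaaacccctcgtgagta
Itih2: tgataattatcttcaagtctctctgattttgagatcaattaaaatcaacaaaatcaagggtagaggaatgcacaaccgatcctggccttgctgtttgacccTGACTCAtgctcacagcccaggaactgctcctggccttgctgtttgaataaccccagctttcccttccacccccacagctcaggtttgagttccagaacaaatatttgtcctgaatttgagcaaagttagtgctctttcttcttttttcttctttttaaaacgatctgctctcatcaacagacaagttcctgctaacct
TGTTTGC was found in 3.59% and TGACTCA in 3.44% of the 9394 promoters. Among 425 genes at least 2-fold higher in dysplasia with a promoter in the table TGACTCA was found in 6.35%, and among 718 at least 2-fold lower in 4.60%. For TGTTTGC these shares were 6.12% and 4.60%. TATAAA was found in 11.8% and 11.4%, against 7.17% of all. As above, these are counts of letters with no test.

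Plasma protein genes of the liver also split. Of 12 tested, 6 were higher and 3 lower. Another 14 of the 26 listed genes were not tested, among them Ttr, Ahsg and Plg, whose signals lay below the limit. Itih2 passed the limit through dysplasia, at a mean of 1291 against 75.0 in transgenic and 28.2 in non-transgenic tissue. The share of rises is thus partly set by that limit. At a limit of 200, 4 genes of the list were higher and 3 lower, and the median was -0.01 against 0.88. Fetub, a fetuin, read 3679.8, 2519.9, 4246, 3035 and 3024 in dysplasia 1 to 5 and 218, 453, 386, 243 and 227 in transgenic 1 to 5. Afp, alpha-fetoprotein, had 2029, 2047, 2911, 1803 and 2269.6 in dysplasia 1 to 5 and 305, 519, 309, 277 and 354 in transgenic 1 to 5. The groups of both genes were apart (limma, log2 change 3.26 for Fetub and 2.50 for Afp, standard error 0.20 and 0.17, adjusted p = 1.64e-06 and 2.63e-06). Orm1, Kng1 and Alb rose over a base below 100, to 413 ± 41.9, 487 ± 279 and 238 ± 35.7. Itih4 and Serpina3n fell by 1.05 and 1.04, and Fga, Fgg and Hp had no call. Among the 10 tested of 18 listed apolipoprotein and HDL genes, Clu was higher by 1.37 and Apoa1 rose from 37.2 ± 13.0 to 363 ± 152. Apoa1, at 4.88 ± 3.35 in non-transgenic lung, also passed the limit through dysplasia. The endothelial lipase gene Lipg and the transfer protein gene Pltp fell by 2.18 and 1.57, and Abca1 and Apoc2 were the other genes called lower, Abca1 not without number 4 (adjusted p = 0.0552, limma). Of 15 complement genes 4 were higher, among them C1qa, C1qb and C1qc, and 6 lower, led by C1s1, which fell by 1.03 on the log2 scale.

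Metabolic genes were called in both directions on several lists. Me1, malic enzyme, which makes NADPH for lipid synthesis, read 6864, 4599.9, 5585, 5099.6 and 6076 in dysplasia 1 to 5 and 2715, 2815, 2598, 2310.0 and 2204 in transgenic 1 to 5. Acly, which supplies acetyl-CoA, was higher by 0.56. The sterol enzymes Dhcr7, Lss, Idi1 and Cyp51 fell by 0.66, 0.64, 0.64 and 0.49 on the log2 scale, whereas Fasn, Scd1 and Scd2 had no call. The list of 18 lipid synthesis genes gave 3 higher and 5 lower, and 3 higher and 8 lower with the number as a block. In glycolysis 5 of 16 were higher, with Hk2, hexokinase 2, at 1.06 and Ldha at 0.73, and Pfkp and Aldoc fell by 0.77 and 0.48. The block gave 7 higher and 4 lower. Respiratory chain genes were higher in 8 of 29 and lower in 0, with a median of 0.16, and 14 were higher with the number as a block. Ribosomal proteins were higher in 3 of 17, and genes of the endoplasmic reticulum in 10 of 25 with 1 lower. Ribosomal and lipid synthesis genes were thus called higher at about the 18.6% of all genes. With the number as a block 7 ribosomal genes were higher and 1 lower, and 17 genes of the endoplasmic reticulum were higher. In that list the translocon genes Ssr4 and Ssr2 were higher by 0.75 and 0.65, while the chaperone gene Hspa5 had no call except with the number as a block (adjusted p = 0.00827, limma). Psat1, an enzyme of serine synthesis, read 996, 1812, 1862, 1179 and 1963 in dysplasia 1 to 5 and 189, 541, 382, 376 and 543 in transgenic 1 to 5. It was the largest rise of 18 amino acid and ATF4 genes, of which 5 were higher and 2 lower, and 8 higher and 3 lower with the number as a block.

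Of 17 antioxidant genes 10 were higher and 1 lower, and 12 higher and 2 lower with the number as a block. Gsta4, a glutathione transferase for lipid aldehydes, read 9400.0, 8263, 8535, 8337 and 9301 in dysplasia 1 to 5 and 1538, 1528, 1635, 1719.7 and 1558 in transgenic 1 to 5. The metallothionein gene Mt1 had 9355, 9958, 10605, 10401 and 13458 in dysplasia 1 to 5 and 3132, 3117, 3369, 2769.5 and 3074 in transgenic 1 to 5. Both were higher on every dysplasia array (limma, log2 change 2.42 for Gsta4 and 1.77 for Mt1, standard error 0.08 and 0.11, adjusted p = 6.81e-08 and 1.47e-06). Gpx2, the glutathione peroxidase of gut epithelium, rose by 1.96, and Gstm1 fell by 0.80. Nqo1, a classical target of the factor Nrf2, read 123 ± 23.3 and 138 ± 23.3 without a call.

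Of 15 xenobiotic enzymes 4 were higher and 9 lower, with a median of -1.01. Fmo1, a flavin monooxygenase, read 2283, 1338, 1364, 3514 and 2139.8 in dysplasia 1 to 5 and 10569.7, 6449, 8461, 9991 and 10040.3 in transgenic 1 to 5. Cyp2b10, a cytochrome P450, read 2885 ± 1399 against 8706 ± 2686, and Cyp4b1 5112 ± 1269 against 14298 ± 2461. The rises were those of Sult2b1, a sulfotransferase of sterols, by 2.33, and of Cyp1b1, by 2.24, beside Cyp2f2 and Cyp2s1.

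Prostaglandin genes moved in both directions. Ptgs2, cyclooxygenase 2, read 1512, 2119, 1100.5, 1004 and 1126 in dysplasia 1 to 5 and 361, 443, 159, 265 and 192 in transgenic 1 to 5. Hpgd, which inactivates prostaglandins, had 4177, 3039.8, 3505, 7298 and 3554 in dysplasia 1 to 5 and 17632, 13056, 15799, 17696 and 14600.4 in transgenic 1 to 5. The groups of neither gene overlapped (limma, log2 change 2.11 for Ptgs2 and -1.92 for Hpgd, standard error 0.26 and 0.21, adjusted p = 0.00011 and 4.49e-05). Ptgr1, a reductase of the same breakdown route, was higher by 2.48, and Ptgis, prostacyclin synthase, fell by 1.65. Ptges, which makes prostaglandin E2, had no call at 468 ± 114 and 415 ± 49.4. Leukotriene genes Alox5, Alox5ap and Ltc4s fell by 0.67, 0.76 and 0.90. The list of 14 gave 5 higher and 7 lower.

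Glycosyltransferases were higher in 9 of 16. St8sia6, a sialyltransferase, read 9035, 7947, 7933, 7413 and 8536 in dysplasia 1 to 5 and 662, 1453, 1079.7, 998 and 1039 in transgenic 1 to 5. B4galt6, which makes lactosylceramide, had 2536, 2452, 3438, 2603 and 3162 in dysplasia 1 to 5 and 366, 624, 517, 481 and 567 in transgenic 1 to 5. Dysplasia arrays were several times above all transgenic arrays for both (limma, log2 change 2.94 for St8sia6 and 2.37 for B4galt6, standard error 0.17 and 0.15, adjusted p = 1.03e-06 and 1.47e-06). Fut2, a fucosyltransferase of gut mucus, and Gcnt1, which branches O-glycans, were higher by 1.88 and 1.85. Of 16 tested, 9 were higher, and Fut8 and B3gnt7 fell by 0.50 and 0.54.

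**Figure D2:**
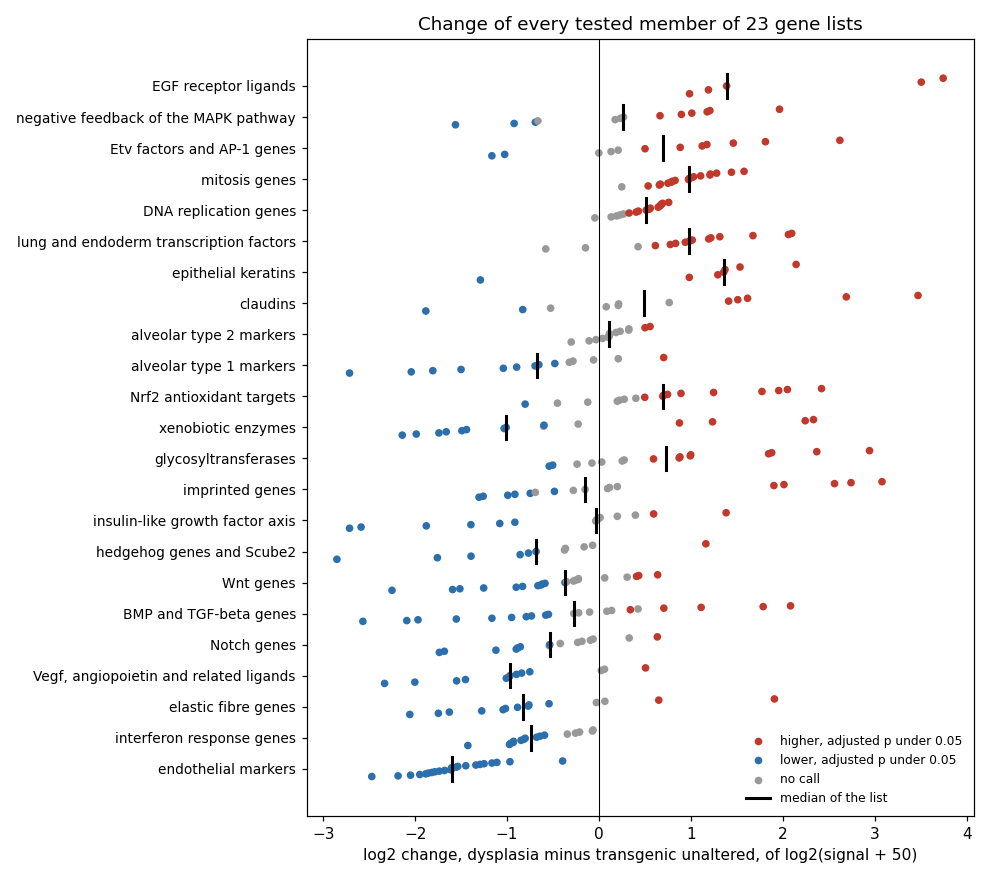
Log2 change of each tested gene in 23 gene lists, dysplasia minus transgenic unaltered tissue (red, higher; blue, lower; grey, no call; black bar, list median). Mitosis genes lie above 0 with a median of 0.98, type 2 cell markers around 0.11, and endothelial markers below 0 with a median of -1.60.

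Imprinted genes did not move as a class. Of 17 tested, 5 were higher and 6 lower. Rian, a non-coding RNA of the Dlk1 and Meg3 cluster, read 9360.2, 7012, 8995, 7101 and 8829.8 in dysplasia 1 to 5 and 829.8, 1285, 986, 746 and 863 in transgenic 1 to 5. Dlk1, a membrane ligand of the same cluster, had 5723, 1555, 2996, 2712 and 4088 in dysplasia 1 to 5 and 579, 872, 842, 515 and 982 in transgenic 1 to 5. Both were higher on all dysplasia arrays, and Mirg, also of this cluster, rose over a base below 100 from 97.8 ± 18.8 to 838 ± 217. Phlda2, a growth restrictor of placenta, was higher by 1.90. Ndn, Peg3, Grb10 and Igf2, which lie in other imprinted regions, fell by 1.31, 1.26, 0.99 and 0.92 on the log2 scale.

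In the insulin-like growth factor axis the ligand Igf1 rose while most binding proteins fell. Igf1 read 619, 1194, 992, 883 and 1002 in dysplasia 1 to 5 and 172, 365, 405, 419.8 and 308 in transgenic 1 to 5 (log2 change 1.38, standard error 0.22, adjusted p = 0.000571, limma). Igfbp6 had 881, 587, 693, 1298 and 598 in dysplasia 1 to 5 and 4149, 2404, 2491, 3351 and 2864 in transgenic 1 to 5. The groups of both genes were apart. Igfbp3 and Igfbp4 fell by 2.59 and 1.08, and Igfbp7 read 15892 ± 1879 and 16012 ± 2575 without a call. Igf1r was higher by 0.59 with overlap, and not without number 4 (adjusted p = 0.122, limma) or any of 6 single arrays (adjusted p up to 0.0732: dysplasia 1, dysplasia 2, dysplasia 4, transgenic 3, transgenic 4, transgenic 5). Of 14 genes 2 were higher and 6 lower.

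The falls described next, like those given above, stand beside lower signals of markers of vessels and mesenchyme. The summed signal of the 24 endothelial markers, all of them lower, was 37613 to 56295 in dysplasia and 106761 to 146401 in transgenic tissue, and that of the 18 fibroblast markers, 11 lower and 0 higher, was 38162 to 53369.5 and 74442 to 89125. With the number as a block 13 fibroblast markers were lower and 2 higher. None of these markers was at 0. Among 9 smooth muscle and pericyte markers 6 were lower, at sums of 9377 to 13086 and 14984 to 19785. Of 5 mesothelial markers 4 were lower, and Krt19, which epithelium also uses, was higher. Pecam1, an adhesion molecule of endothelium, read 847, 764, 544, 1016 and 456 in dysplasia 1 to 5 and 3194, 2875, 3136, 3133 and 1473 in transgenic 1 to 5, and the defining fibroblast genes Col1a1 and Pdgfra read 848 ± 188 and 2204 ± 349.8 in dysplasia against 833 ± 153 and 5781 ± 249.7. The part of these cells in the following changes, and in the falls given above, was not tested. Nor was the part of epithelial cells in the rises.

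In the hedgehog pathway the ligand Shh was higher, and its receptor and targets were among the genes that fell. Shh, the hedgehog ligand of lung epithelium, read 4279, 3580.0, 4102, 4072 and 4775 in dysplasia 1 to 5 and 1720.2, 1857, 1843, 1670.4 and 2047 in transgenic 1 to 5. Ptch1, its receptor and a target of the pathway, had 1234, 2236, 1775, 2176 and 2119.6 in dysplasia 1 to 5 and 2574, 3554, 3282, 3746 and 4176 in transgenic 1 to 5, and Hhip, the inhibitor and another target, 108, 132, 132, 257 and 126 in dysplasia 1 to 5 and 396, 336, 429, 605 and 603 in transgenic 1 to 5. Shh was higher and both others lower without overlap (limma, log2 change 1.16 for Shh, -0.86 for Ptch1 and -1.39 for Hhip, standard error 0.10, 0.18 and 0.20, adjusted p = 1.00e-05, 0.0032 and 0.000325). Gas1 and Boc, co-receptors of Shh, and the factor Gli2 fell by 1.76, 0.77 and 0.68 on the log2 scale. Of 11 hedgehog genes 1 was higher and 6 lower.

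Of 8 FGF genes Fgfr2, the epithelial receptor, was the 1 that rose, with 7813, 5126, 6422, 5640.3 and 6363 in dysplasia 1 to 5 and 4081, 2817, 2888, 3405 and 2866 in transgenic 1 to 5. Fgfr4 read 107, 89.7, 134, 192 and 143 in dysplasia 1 to 5 and 1112, 550.1, 1002, 1201 and 1279 in transgenic 1 to 5, and Fgf7, a mesenchymal ligand of Fgfr2, 172, 214, 169.6, 315 and 161 in dysplasia 1 to 5 and 737, 828, 826, 738 and 954 in transgenic 1 to 5. Both fell without overlap, by 2.53 and 1.78 on the log2 scale. Fgf18 fell by 0.64 and lost its call without number 4 (adjusted p = 0.0598, limma) and when any of 7 single arrays (adjusted p up to 0.0925: dysplasia 1, dysplasia 3, dysplasia 5, transgenic 1, transgenic 2, transgenic 4, transgenic 5) was left out.

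**Figure D3:**
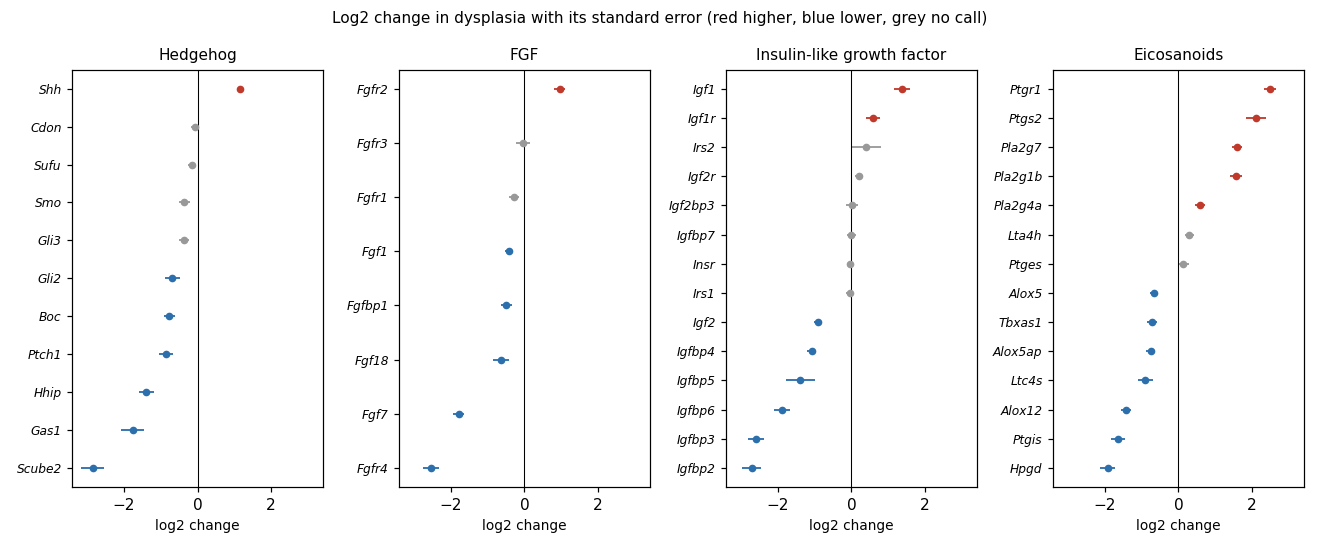
Log2 change of log2(signal + 50), dysplasia minus transgenic unaltered tissue, with its standard error as a bar, for every tested gene of 4 pathways (red, higher; blue, lower; grey, no call). Shh, Fgfr2, Igf1 and Ptgs2 lie above 0, while Scube2, Fgfr4, Igfbp2 and Hpgd lie at the lower end of their panels.

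BMP and TGF-beta genes gave 5 higher and 10 lower of 21. Inhbb, a subunit of activin, read 2940.1, 2392, 2821, 2351 and 2765 in dysplasia 1 to 5 and 695, 832, 753, 684 and 701 in transgenic 1 to 5. Fst, follistatin, which binds activin, had 816, 1021, 952, 702 and 958 in dysplasia 1 to 5 and 173, 158, 190.1, 140.1 and 193 in transgenic 1 to 5. Bmp4, a ligand of distal lung buds, was higher by 1.11, and all of these lay above transgenic tissue without overlap (limma, log2 change 1.79 for Inhbb and 2.08 for Fst, standard error 0.10 and 0.12, adjusted p = 8.37e-07 and 1.03e-06). Smad6 and Smad7, the inhibitory Smads, fell by 1.97 and 1.16, Id1 and Id3, targets of BMP signals, by 0.58 and 0.79, and Acvrl1, a BMP receptor of endothelium, by 2.09 on the log2 scale. The call of Id1 was lost without number 4 (adjusted p = 0.113, limma) and when any of 5 single arrays (adjusted p up to 0.0745: dysplasia 2, dysplasia 3, dysplasia 4, transgenic 3, transgenic 4) was left out. Of 21 Wnt genes 11 were lower and 3 higher. Wnt7b, a ligand of lung epithelium, was higher by 0.64. The feedback targets Axin2, Notum and Nkd1 fell by 0.62, 0.63 and 1.25, and Wnt2, a ligand of lung mesenchyme, fell from 672 ± 112 to 104 ± 41.6. Of 15 Notch genes Jag1 was higher by 0.63 and 7 were lower, against 2 higher and 9 lower with the number as a block. Hey1 and Notch4, which endothelium uses, fell by 1.74 and 1.68 on the log2 scale.

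Ligands for vessels were lower in 10 of 13. Vegfa, the main growth factor of endothelium, read 1594, 2089, 1962, 2516 and 2354 in dysplasia 1 to 5 and 3504, 3959, 4079.9, 4468 and 4810.2 in transgenic 1 to 5. All dysplasia arrays lay below all transgenic arrays (log2 change -0.98, standard error 0.13, adjusted p = 0.000208, limma). Angpt1, a ligand of the receptor Tek, had 534, 449, 342, 843 and 437 in dysplasia 1 to 5 and 2124, 2224, 2035, 2034 and 2349 in transgenic 1 to 5. Vegfc and Pdgfb fell by 1.55 and 1.45 on the log2 scale. Pgf was the 1 of 13 ligands that was higher, by 0.51, and its call was lost without number 4 (adjusted p = 0.0763, limma) and when any of 4 single arrays (adjusted p up to 0.0596: dysplasia 3, transgenic 3, transgenic 4, transgenic 5) was left out. Of 9 retinoid genes Rbp4, the retinol carrier, rose by 1.80 and Rdh10 by 0.48, and Lrat, Cyp26b1 and Aldh1a1 were lower.

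Elastin parted from the proteins that assemble it. Eln read 2508, 3513, 4250.1, 2626 and 4313 in dysplasia 1 to 5 and 533, 943, 1000.1, 757 and 1200.0 in transgenic 1 to 5. Fbln5, which organises elastic fibres, had 2619.9, 2154, 2093, 2497 and 2463 in dysplasia 1 to 5 and 5004, 4125, 4964, 5258 and 4839 in transgenic 1 to 5, and Lox, a cross-linking enzyme, read 562 ± 69.2 against 1084 ± 155. Eln was higher (log2 change 1.91, standard error 0.22, adjusted p = 6.94e-05, limma) and both others lower, each without overlap. Of 14 elastic fibre genes 10 were lower and 2 higher, the second rise being that of Ltbp2 by 0.65. Collagens were mixed, with 3 higher and 7 lower of 18, and 5 higher and 8 lower with the number as a block. Col18a1 and Col15a1, of basement membrane zones, were higher by 1.03 and 0.98, and Col13a1 fell by 1.80. Of 13 metalloprotease genes 4 were higher, Timp1 by 0.84, and Mmp9 fell by 0.64 on the log2 scale, against 5 higher and 4 lower with the number as a block.

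Immune genes fell in the interferon group and split among chemokines. Of 16 interferon response genes 11 were lower and 0 higher. Rsad2, viperin, read 398, 320.4, 209.9, 443 and 426 in dysplasia 1 to 5 and 972, 897, 987, 1034 and 1258 in transgenic 1 to 5. Ifit1, which binds viral RNA, had 411, 266, 457, 525 and 543 in dysplasia 1 to 5 and 787, 681, 1119, 780.4 and 1016 in transgenic 1 to 5. Both were lower without overlap (limma, log2 change -1.43 for Rsad2 and -0.93 for Ifit1, standard error 0.17 and 0.19, adjusted p = 9.11e-05 and 0.00271). Cxcl17, an epithelial chemokine, was the largest rise of 17 chemokines, with 8245, 5205, 8111, 6124 and 6441 in dysplasia 1 to 5 and 1671, 1915, 1923, 1516 and 1342 in transgenic 1 to 5. Cxcl1, Ccl17 and Ccl20 were higher by 1.14, 1.14 and 0.76, and Cxcl12, Ccl5, Cxcl14 and Cx3cl1 were lower, Cxcl12 at 648 ± 133 against 2310.4 ± 176, and Cx3cl1 not without number 4 (adjusted p = 0.0735, limma).

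Markers of blood and immune cells are given beside these values. Of 14 macrophage markers 8 were lower and 3 higher, with sums of 35443 to 41969 in dysplasia and 42482 to 50509 in transgenic tissue. Cd14 rose by 1.62, and the efferocytosis receptor gene Mertk fell by 1.51 on the log2 scale. Of 14 lymphocyte markers 8 were lower, of 5 neutrophil markers 3, and of 7 red cell and platelet markers 6, and none of the 3 lists had a gene called higher, although the block gave 1 higher and 4 lower neutrophil markers. The T cell receptor genes Cd3d, Cd3e and Cd3g had no call. Of 10 class II genes 2, H2-Ab1 and H2-Eb1, were higher and 2, H2-Ob and Ctss, lower, and the calls of H2-Eb1 without transgenic 5 (adjusted p = 0.0505, limma) and of Ctss without number 4 (adjusted p = 0.19) were lost. Of 7 heart muscle genes 1, Myl4, was lower, and not when any of 6 single arrays (adjusted p up to 0.0804: dysplasia 1, dysplasia 2, dysplasia 3, transgenic 2, transgenic 3, transgenic 4) was left out. Of 12 Bcl2 family genes 0 were higher and 2, Bcl2 and Pmaip1, lower (limma, adjusted p = 0.00136 and 0.00117). Over all genes 18.6% were higher and 21% lower, and the counts of the class II genes lie near these shares. With the number as a block 4 class II genes were higher, 3 heart muscle genes were lower, and of the Bcl2 family 2 were higher and 4 lower. The part of any of these cells in the values was not tested.

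Ion transport genes moved in both directions. Of 11 tested, 5 were higher and 4 lower. Slc12a2, the basolateral chloride cotransporter, read 20397, 15364, 17124, 14085 and 18734 in dysplasia 1 to 5 and 6692, 7114, 6405, 5868 and 6304 in transgenic 1 to 5. Atp1b1, a subunit of the sodium pump, was higher by 0.92, also without overlap. Scnn1g, a subunit of the epithelial sodium channel, had 1124, 923, 913, 1455 and 1083 in dysplasia 1 to 5 and 3127, 2570.0, 2611, 3068 and 2726 in transgenic 1 to 5, and fell by 1.34 on the log2 scale, while Scnn1a, the subunit that forms its pore, had no call at 2461 ± 546 and 2833 ± 526 and was lower with the number as a block (adjusted p = 0.0399, limma).

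Single arrays moved some genes more than the groups did. Scgb3a1, a secretoglobin of large airways, read 729, 508, 8602, 5103 and 496 in dysplasia 1 to 5 and 248, 243, 399, 215 and 233 in transgenic 1 to 5. Dysplasia 3 and 4 were far above the other dysplasia arrays, and the call (adjusted p = 0.0287, limma) was lost without number 4 (adjusted p = 0.122) and when any of 5 single arrays (adjusted p up to 0.0658: dysplasia 4, transgenic 1, transgenic 2, transgenic 4, transgenic 5) was left out. Bpifa1, a secreted protein of the upper airway, had 271, 88.3, 4649.9, 2255 and 10.8 in dysplasia 1 to 5 and 12.4, 34.5, 118, 4.75 and 17.1 in transgenic 1 to 5, again highest in dysplasia 3 and 4, and it did not pass the test (adjusted p = 0.0768, limma) except with the number as a block (adjusted p = 0.0198). The nuclear RNA Malat1 read 15220.4, 17247, 1682, 1736 and 2209 in dysplasia 1 to 5 and 11896, 17980.1, 1906, 3778 and 1854 in transgenic 1 to 5, high in numbers 1 and 2 of both tissues and low in the other numbers. The actin 5' to 3' ratio was also highest in dysplasia 1 and 2 and in transgenic 1 and 2, and its part in this order was not tested. Dysplasia 4 was the highest of the 5 dysplasia arrays for 1245 of the 2440 genes called lower, or 51.0%, against 1045 of the 7005 genes without a call, or 14.9%. It was also the highest for each of the 12 largest falls, such as Ednrb, an endothelin receptor, with 461, 427, 394, 1178 and 518 in dysplasia 1 to 5 and 3010.4, 2845, 3718, 3562 and 3240.0 in transgenic 1 to 5. Even so, transgenic arrays stayed above it, and all 12 were called without number 4.

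**Figure D4:**
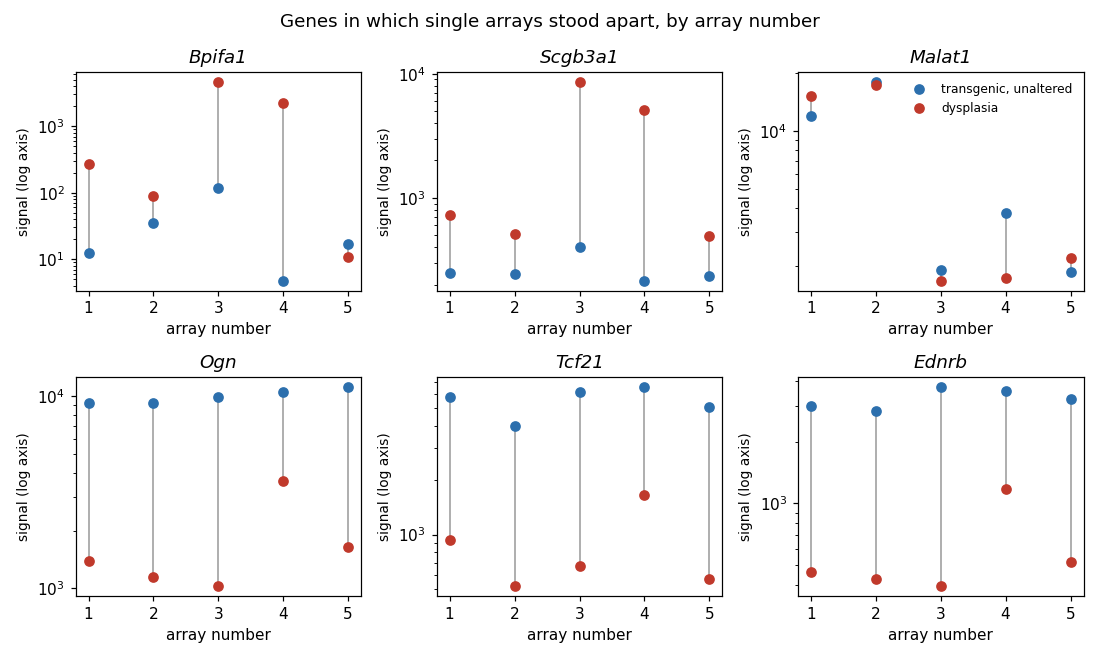
Signal on a log axis against array number for 6 genes, with transgenic unaltered (blue) and dysplasia (red) arrays of the same number joined by a grey line. Bpifa1 and Scgb3a1 are highest in dysplasia 3 and 4, Malat1 is highest in numbers 1 and 2 of both tissues, and dysplasia 4 is the highest dysplasia array for Ogn, Tcf21 and Ednrb.

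For genes called from these same arrays, the change within each number is given as description only, since the calls favour steady changes. The median within-number change of the genes called higher was 0.64, 0.50, 0.67, 0.57 and 0.67 for numbers 1 to 5, and that of the genes called lower -0.78, -0.76, -0.82, -0.64 and -0.79. Number 4, whose 2 arrays differ in Xist, had the smallest median fall. For mitosis genes the medians ran from 0.64 to 1.35 and for endothelial markers from -1.78 to -1.42.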

How the data were processed

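RNA of laser-microdissected tissue was hybridised to Affymetrix mouse genome arrays, 1 array per sample. The authors made the intensity values in GCOS, which computes a signal for every probe set and brings all arrays to a target of 500. On every array the deposited values average 500.0 once the top and bottom 2% are trimmed. The version of GCOS was not stated in the text read here. Of 45101 probe sets 64 controls were left out, and of the remaining 45037 the array annotation names 1 gene for 34945, several for 932 and none for 9160. Areg and Pthlh were named through the study's supplementary table, and some genes are not reported here. The number of arrays limits the precision. The methods give 5 transgenic mice, each the source of both tissues, and state that tissue was pooled within an animal. Dysplasia 4 carried Xist at 9674 together with the Y-linked Eif2s3y at 495, Kdm5d at 398 and Uty at 196. Whether it holds RNA of more than 1 mouse was not tested.

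From the deposited signal, log2(signal + 50) was computed for the 21658 probe sets with a mean above 100 over the 15 arrays, and the 5 dysplasia and 5 transgenic arrays were compared with limma 3.58.1 (lmFit and eBayes, unpaired as in the study's methods) in R 4.3.3. Tables were made with Python 3.11.15, pandas 2.3.3 and numpy 2.4.6. The fit was tested on simulated data. Arrays of both groups carry numbers 1 to 5, and the methods state that both tissues came from the same mice but not whether equal numbers mean equal mice. Deviations from the group means correlated at 0.732, 0.773, 0.625, 0.219 and 0.710 for numbers 1 to 5, all above the limit of 0.1 set for pairing. Between unequal numbers they ran from -0.629 to 0.352, so this limit does not by itself tell pairs from other arrays. Number 4 lay near unequal numbers such as dysplasia 5 with transgenic 4, at 0.216, and its pairing is uncertain. Equal numbers were taken as pairs all the same, and a fit with the number as a block was run as well.

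The 61 gene lists hold 1006 entries, of which 782 passed the signal limit and were tested. The lists were chosen with earlier results of these data known, and so were the comparison and the rule for named genes. The rule names the 12 largest rises and falls without overlap, up to 4 called members per list by p and its 2 brightest members without a call, and genes that the text of the study names, 338 in all. The other genes in the text were chosen after their values were seen. Alternatives changed the offset, normalization, signal limit, variance model, samples, probe set per gene, actin ratio as a covariate and the array number as a block, or left out arrays. Raw scans and detection calls were not used here.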

Additional observations from a re-analysis of the deposited data

Results flagged for a closer look

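An array far from the other 4 of its group, by Dixon's criterion, was found in 34 of 590 groups of 5 arrays, over the 2 groups of each of 295 genes named in the text. By chance about 1 in 20 groups passes this criterion. Dysplasia 1 was the lowest of its group, apart from the rest, for Bub1 at a signal of 181. Dysplasia 1 was the highest of its group, apart from the rest, for Cx3cl1 at a signal of 654, Grhl2 at a signal of 2564, Scd1 at a signal of 32120.0, Scgb1a1 at a signal of 37214, Sftpb at a signal of 32159, Sftpc at a signal of 32942 and Sftpd at a signal of 34801. Dysplasia 2 was the lowest of its group, apart from the rest, for Araf at a signal of 406, Axin2 at a signal of 297 and Pdpn at a signal of 4689. Dysplasia 2 was the highest of its group, apart from the rest, for Foxa2 at a signal of 6344. Dysplasia 4 was the highest of its group, apart from the rest, for C1s1 at a signal of 1663, Ccl20 at a signal of 354, Col13a1 at a signal of 423, Ednrb at a signal of 1178 and Hhip at a signal of 257. Transgenic 1 was the lowest of its group, apart from the rest, for Adcyap1 at a signal of 16.1, Idi1 at a signal of 2459, Mcm3 at a signal of 584, Mcm4 at a signal of 866, Mcm5 at a signal of 848 and Nqo1 at a signal of 98.0. Transgenic 1 was the highest of its group, apart from the rest, for Hspa5 at a signal of 16657 and Nkd1 at a signal of 2666. Transgenic 2 was the highest of its group, apart from the rest, for Col15a1 at a signal of 126. Transgenic 2 was the lowest of its group, apart from the rest, for Igfbp4 at a signal of 6254, Krt80 at a signal of 1881 and Pdgfra at a signal of 5348. Transgenic 3 was the lowest of its group, apart from the rest, for Eif2s3y at a signal of 13.3. Transgenic 3 was the highest of its group, apart from the rest, for Scgb3a1 at a signal of 399 and Xist at a signal of 12007. Transgenic 5 was the lowest of its group, apart from the rest, for Pecam1 at a signal of 1473 and Ube2c at a signal of 269.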

How the results depend on the processing

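Of the 4 counts of probe sets (higher, lower, and each at a fold of at least 2 with an adjusted p of at most 0.001), all lay within 1.5 times the value with all arrays under every alternative but one. With the array number as a block, which takes equal numbers as pairs, 5072 probe sets were higher against 3321, and 5589 lower against 3871. At the stricter thresholds the block gave 821 and 1490. Leaving out each array in turn gave 2793 to 3259 higher and 3292 to 4002 lower, and 550 to 671 and 849 to 1201 at the stricter thresholds. For the 457 genes followed, the block lost no call, added 42 and turned no direction, and leaving out number 4 ended 20 calls. With the most variable probe set of a gene in place of the brightest, 16 calls were lost and the direction turned for Ccnd3 (log2 change 0.28), Cx3cl1 (0.19), Grb2 (-0.45), Igfbp7 (0.58) and Map2k2 (-0.029), whose probe sets disagree. The cause was not tested. Under the other alternatives no direction turned: an offset of 16 or none, quantile normalization, a signal limit of 200, in either group or none, a variance trend, the actin ratio as a covariate and a fit of all 3 groups. Signals below 100 are near background, so that depth of signal limits the folds of genes such as Etv4, Orm1, Hnf4a and Mirg, and 1 sex mismatch in number 4 and the label conflict of transgenic 2 remain in the values reported.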
